A study of Mus musculus with 5 samples.

Results

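Epithelial-mesenchymal transition (EMT) genes were examined in liver tumours with and without late overexpression of Prox1. The set held 10 genes chosen by name, namely the transcription factors Snai1, Snai2, Twist1, Twist2, Zeb1, Zeb2 and Prrx1 and the mesenchymal products Vim, Fn1 and Sparc. Each symbol matched a single gene among the 55397 in the table, and all 10 were among the 17105 genes tested, those whose normalised counts averaged 10 or more. A normalised count is the number of reads of a gene divided by the size factor of its library.

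The libraries came from dissected tumours of female C57BL/6N mice, 2 labelled as Control and 3 as Prox1 overexpression (Prox1 OE). In both groups, mice 8 weeks of age received hydrodynamic tail vein injections of 4 µg Sleeping Beauty transposase with 10 µg of pT3-EF1a plasmids for Akt and the Notch1 intracellular domain (NICD). This pair of oncogenes turns hepatocytes into tumours with features of cholangiocarcinoma (CCA), and the NICD plasmid also carries the rtTA activator. A further 10 µg of plasmid held FLAG-tagged mouse Prox1 with IRES-GFP behind a doxycycline-responsive promoter, or the same vector with GFP and no Prox1 in Control. Doxycycline diet (6.25%) started on day 21, and overexpression is given as running from week 3 to week 4, which a tumour collected at a humane endpoint need not follow. All tumours thus shared Akt, NICD, GFP vector and doxycycline, and the groups differed by design in the Prox1 insert alone. Only cells that took up the plasmids carry the transgenes, whereas a bulk tumour sample also holds host cells. Collection followed 1 week of overexpression or a humane endpoint, and which applied to which tumour was not given. Nothing in the labels names the animal of each library, so p-values measure the spread between these libraries.

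EMT is a programme in which epithelial cells loosen their junctions and take on mesenchymal features, and it is known from development, wound repair and carcinoma. SNAIL proteins (Snai1, Snai2) are zinc finger repressors, ZEB proteins combine zinc fingers with a homeodomain, TWIST proteins are basic helix-loop-helix factors and Prrx1 is a homeodomain factor of mesenchyme. SNAIL and ZEB proteins bind E-box sequences and repress epithelial genes such as Cdh1, which encodes E-cadherin. In liver, the same genes are also normal products of non-epithelial cells such as stellate cells, portal fibroblasts, endothelium and macrophages. A lower level in bulk RNA can therefore stand for fewer cells of a type or for less RNA per cell, which cannot be told apart here.

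Libraries had totals of 48740863 to 56629477 reads, which overlapped between the groups. A single read was worth 0.822 and 0.848 normalised counts in Control and 1.02, 1.18 and 1.16 in Prox1 OE, so the scaling itself separated the groups, and a count of 3 reads corresponds to 2.46 to 3.54 normalised counts. Prox1 itself was at 4153 and 4664 normalised counts in Control, against 48090, 11113 and 8231 in Prox1 OE replicates 1, 2 and 3. The groups did not overlap, with a log2 fold change of 1.90 (SE 0.66, limma adjusted p = 0.0607), and plasmid and endogenous transcripts were counted together. Prox1 passed without Prox1 OE replicate 1 (1.12, limma adjusted p = 0.0056), without Prox1 OE replicate 3 (2.39, 0.0325), with the replicate block (2.39, 0.0013) and in edgeR (2.35, 0.0478), with the adjusted p over all alternatives between 0.0013 and 0.231. The epithelial genes Cdh1 (9238 to 26155 normalised counts) and Epcam (3515 to 8657) were present in every library, and both were lower in Prox1 OE. The labels call the cells transformed hepatocytes, and Alb, the albumin gene of hepatocytes, was at 480678 to 2594529 normalised counts. All 10 EMT genes together took 0.363% and 0.357% of Control reads, against 0.184%, 0.205% and 0.173% of Prox1 OE reads. These shares are of total reads and so differ from the normalised scale. Summed normalised counts were 157019 and 163600 in Control and 105400, 118080 and 113202 in Prox1 OE.

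Promoter sequences are shown for Snai1, Sparc and Vim, the EMT genes that fell in Prox1 OE, because SNAIL and ZEB factors bind the E-box letters CAGGTG. The RefSeq promoter windows examined (GRCm38.p6, 250 bases before to 50 after a transcription start) covered 7 of the 10 genes in 10 windows. Snai2, Zeb1 and Fn1 had no window among those examined, which does not show that they lack a RefSeq entry. In the sequences, capitals mark CAGGTG or CACCTG, which are reverse complements of each other, so that the search covered both strands. The looser CANNTG, which includes both, was counted as well. The Snai1 window lies at chr2:167537945-167538244 (+), the Sparc window at chr11:55420031-55420330 (-) and the Vim window at chr2:13574061-13574360 (+).
Snai1: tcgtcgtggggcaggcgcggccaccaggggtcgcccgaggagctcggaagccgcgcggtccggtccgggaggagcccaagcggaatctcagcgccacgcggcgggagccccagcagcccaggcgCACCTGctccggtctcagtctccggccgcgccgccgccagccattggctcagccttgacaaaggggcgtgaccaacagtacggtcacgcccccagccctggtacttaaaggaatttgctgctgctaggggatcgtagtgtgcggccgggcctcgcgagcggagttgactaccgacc
Sparc: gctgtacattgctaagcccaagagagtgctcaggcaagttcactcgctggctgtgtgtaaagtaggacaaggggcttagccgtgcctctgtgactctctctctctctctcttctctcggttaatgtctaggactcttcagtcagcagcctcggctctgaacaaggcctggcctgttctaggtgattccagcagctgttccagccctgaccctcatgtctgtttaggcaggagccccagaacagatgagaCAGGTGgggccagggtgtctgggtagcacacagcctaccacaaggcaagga
Vim: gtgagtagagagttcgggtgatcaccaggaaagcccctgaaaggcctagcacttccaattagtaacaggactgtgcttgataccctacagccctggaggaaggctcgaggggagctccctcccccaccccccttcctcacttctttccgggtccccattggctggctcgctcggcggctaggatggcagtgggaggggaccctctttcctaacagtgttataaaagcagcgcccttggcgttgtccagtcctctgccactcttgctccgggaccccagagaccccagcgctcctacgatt
The Snai1 window held a single match starting 126 bases before the start site (position -126), and the Sparc window held 1 match at position -1, across the RefSeq start used here. For Sparc and Vim this start lies inside the gene span that GENCODE gives, downstream of its outer end. The Vim window and those of Twist1, Twist2, Prrx1 and Zeb2 held none, which says only that these letters were not in these windows. Over all 32851 RefSeq windows of this length, 20.2% held the motif and 72.3% held CANNTG. GC content was 70.0% for Snai1, 59.3% for Vim and 55.3% for Sparc, against a median of 52.7% over all windows.

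To ask how the EMT genes differed between the groups, each gene was tested with limma on log2(normalised count + 1), with Benjamini-Hochberg adjustment over all 17105 genes and a threshold of 0.05. Snai1, Vim and Sparc were lower in Prox1 OE and Snai2 was higher, so that 4 of 10 genes passed. Among all genes tested 33.3% passed, 17.1% higher and 16.2% lower, so the share among the EMT genes was near the background. The Prox1 OE values lay entirely on one side of both Control values for 7 genes, of which 6 were lower and 1 was higher. The same held for 63.3% of all genes tested, 32.4% lower and 30.9% higher. The median log2 fold change was -0.50 over the 10 genes and -0.02 over all genes tested, with -0.44 for the 7 transcription factors and -0.71 for the 3 products.

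**Figure D1:**
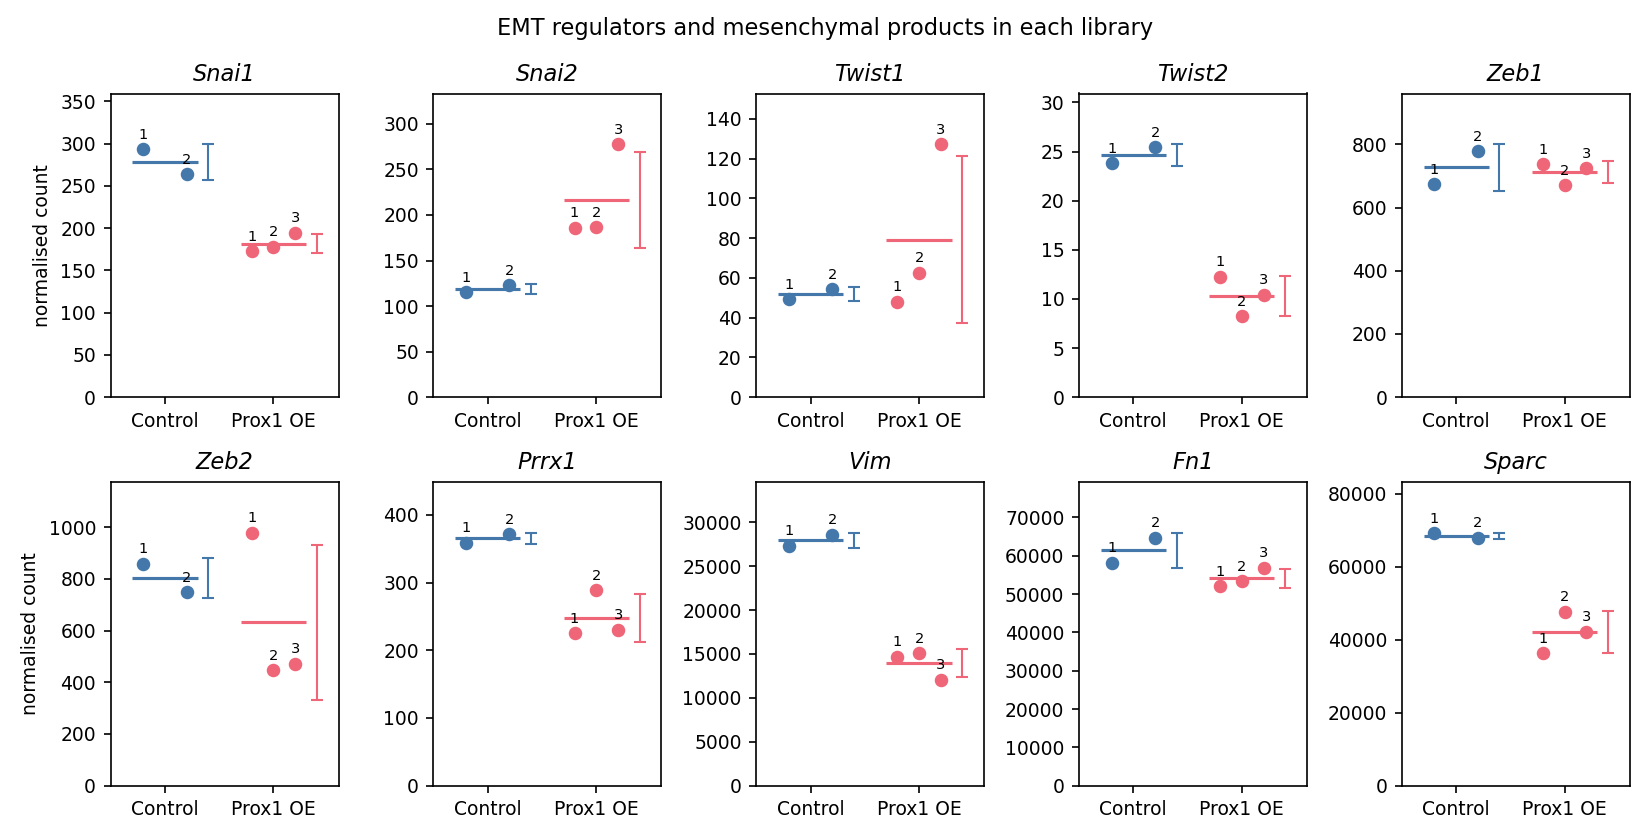
Normalised count (linear axis from 0) of each EMT gene in each library, with replicate numbers, group means as horizontal lines and SD as brackets (Control n = 2, Prox1 OE n = 3). Vim was at 27319 and 28563 in Control and at 12084 to 15100 in Prox1 OE, Snai2 was above both Control values in every Prox1 OE library, and Zeb1, Zeb2 and Twist1 overlapped between the groups.

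Snai1, the founding EMT repressor of the SNAIL family (ENSMUSG00000042821, chr2:167538195-167542814), was at 293.3 and 263.6 normalised counts in Control replicates 1 and 2. In Prox1 OE replicates 1, 2 and 3 it was at 172.8, 178.2 and 194.4. All 3 Prox1 OE libraries were below both Control libraries, and the spread within each group was small. The means were 278 ± 21.0 (SD, n = 2) and 182 ± 11.3 (SD, n = 3), and Snai1 fell with a log2 fold change of -0.61 (SE 0.18, 95% interval -1.03 to -0.19, limma adjusted p = 0.0363). The call was lost without Control replicate 1 (-0.54, limma adjusted p = 0.282), Control replicate 2 (-0.69, 0.157), Prox1 OE replicate 2 (-0.60, 0.0854) or Prox1 OE replicate 3 (-0.66, 0.0555), while the direction did not change. It was also lost with upper-quartile factors (limma adjusted p = 0.0589) and with no filter (0.0549).

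Snai2, which encodes the related repressor SLUG (ENSMUSG00000022676, chr16:14705852-14709385), went the other way. It was at 115.0 and 122.9 normalised counts in Control, and at 186.1, 186.4 and 277.8 in Prox1 OE replicates 1, 2 and 3. Each Prox1 OE library exceeded both Control libraries, and replicate 3 stood above the other two. The means were 119 ± 5.58 (SD, n = 2) and 217 ± 52.8 (SD, n = 3), 1.82 times as high, and Snai2 rose with a log2 fold change of 0.83 (SE 0.24, 95% interval 0.27 to 1.40, limma adjusted p = 0.0352). Without Control replicate 1 the adjusted p was 0.211, without Control replicate 2 it was 0.146, without Prox1 OE replicate 2 it was 0.0618 and without Prox1 OE replicate 3 it was 0.0791 (limma, log2 fold change 0.64 to 0.93). The call was also lost with the replicate number as a block (0.64, limma adjusted p = 0.0666), with total count scaling (0.41, 0.189) and with no filter (0.0601).

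Both SNAIL genes were set against each other within each library, per kilobase of exon, since such a ratio does not depend on the scaling of the library. Snai2 per kilobase was 0.315 and 0.374 of Snai1 in Control and 0.864, 0.839 and 1.15 of Snai1 in Prox1 OE. The ratio was higher in every Prox1 OE library, by 1.45 on the log2 scale. With 2 libraries against 3, an exact permutation test cannot go below p = 0.1, which is what it gave (two-sided, 0.225 after Benjamini-Hochberg adjustment over the 9 ratios computed).

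Twist1, a helix-loop-helix factor of cranial and limb mesenchyme (ENSMUSG00000035799, chr12:33957671-33959829), was at 49.3 and 54.3 normalised counts in Control. Prox1 OE replicates 1, 2 and 3 had 48.1, 62.5 and 127.3. The groups overlapped, and only Prox1 OE replicate 3 was well above the rest. The log2 fold change of 0.48 had a 95% interval of -0.51 to 1.47 (limma adjusted p = 0.409), and it was 0.08 without Prox1 OE replicate 3 and 0.78 without Prox1 OE replicate 1 (limma adjusted p = 0.155).

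Twist2, the close paralogue also called Dermo1 (ENSMUSG00000007805, chr1:91801461-91848028), was the least abundant of the 10 genes. It had 29 and 30 reads in Control, or 23.8 and 25.4 normalised counts, and 12, 7 and 9 reads in Prox1 OE, or 12.3, 8.3 and 10.4. The groups did not overlap, and Prox1 OE was at 0.419 of the Control mean. Twist2 had a log2 fold change of -1.19 (SE 0.41, 95% interval -2.16 to -0.22, limma adjusted p = 0.0610), and missed the threshold. It passed without Prox1 OE replicate 1 (-1.32, limma adjusted p = 0.0448), in edgeR on whole reads (-1.24, adjusted p = 0.0453) in limma without the trend (adjusted p = 0.0201) and with total count scaling (-1.60, 0.0173). The ratio of Twist1 to Twist2 per kilobase was 4.03 and 4.16 in Control and 7.64, 14.8 and 23.8 in Prox1 OE (exact permutation p = 0.2, adjusted 0.3).

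Zeb1, a zinc finger repressor of epithelial genes (ENSMUSG00000024238, chr18:5591860-5775467), was at 674.5 and 779.0 normalised counts in Control. It was at 737.2, 671.4 and 724.5 in Prox1 OE, so that the groups overlapped. On the log2 scale the difference was -0.03 (SE 0.14, limma adjusted p = 0.888) with a 95% interval of -0.35 to 0.29, and with total count scaling it was -0.46 (limma adjusted p = 0.0446). The sign turned to 0.049 with upper-quartile factors, to 0.075 without Control replicate 2 and to 0.012 without Prox1 OE replicate 2.

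Zeb2, the related factor that macrophages and other host cells also express (ENSMUSG00000026872, chr2:44983632-45117395), split the Prox1 OE libraries. Control libraries had 858.5 and 749.3 normalised counts, and Prox1 OE replicates 1, 2 and 3 had 979.5, 447.2 and 472.2. Replicate 1, which also had the highest Prox1, was above both Control libraries, whereas replicates 2 and 3 were below them. On the log2 scale the difference was -0.44 (SE 0.33, limma adjusted p = 0.334), and without Prox1 OE replicate 1 it was -0.80 (limma adjusted p = 0.00702). Zeb2os, an antisense gene whose exons overlap Zeb2, was at 116.7 and 87.3 normalised counts in Control and 146.2, 126.3 and 111.1 in Prox1 OE (log2 fold change 0.33, limma adjusted p = 0.335). Whether the counting used strand was not given, so reads of Zeb2 and Zeb2os may not be fully apart.

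Prrx1, a homeodomain regulator of mesenchyme (ENSMUSG00000026586, chr1:163245119-163313710), was at 359.0 and 371.3 normalised counts in Control. Prox1 OE replicates 1, 2 and 3 had 224.9, 289.1 and 230.3, all below Control. The means were 365 ± 8.66 (SD, n = 2) and 248 ± 35.6 (SD, n = 3). At -0.56 on the log2 scale (SE 0.18, 95% interval -0.995 to -0.135, limma adjusted p = 0.0504), Prrx1 lay just outside the threshold. It passed in DESeq2 (-0.56, adjusted p = 0.0227), with a pseudocount of 0.1 (limma adjusted p = 0.0489), with a mean of at least 50 (0.0449), with total count scaling (0.0071) and without Prox1 OE replicate 2 (-0.68, 0.0471).

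Vim encodes vimentin, the main intermediate filament of mesenchymal cells (ENSMUSG00000026728, chr2:13573927-13582826). It was at 27319 and 28563 normalised counts in Control, and at 14676, 15100 and 12084 in Prox1 OE replicates 1, 2 and 3. The groups were far apart relative to their spread, with means of 27941 ± 880 (SD, n = 2) and 13953 ± 1633 (SD, n = 3). Vim fell with a log2 fold change of -1.01 (SE 0.14, 95% interval -1.35 to -0.67, limma adjusted p = 0.0035), to 0.499 of Control. It passed under each of the 16 alternative settings run, with adjusted p-values up to 0.0438.

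Sparc encodes osteonectin, a collagen-binding matrix protein (ENSMUSG00000018593, chr11:55394500-55423183). Its Control values were 69145 and 67991 normalised counts, and its Prox1 OE values were 36389, 47744 and 42164. All Prox1 OE libraries were below both Control libraries, and replicate 2 was the highest of the 3. The means were 68568 ± 816 (SD, n = 2) and 42099 ± 5678 (SD, n = 3), and Sparc fell with a log2 fold change of -0.71 (SE 0.18, 95% interval -1.12 to -0.30, limma adjusted p = 0.0201). The call was lost without Control replicate 1 (-0.70, limma adjusted p = 0.165) or Control replicate 2 (-0.72, 0.130).

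Fn1 encodes fibronectin, a matrix glycoprotein that hepatocytes also secrete into plasma (ENSMUSG00000026193, chr1:71585520-71653200). It was at 58182 and 64680 normalised counts in Control and at 51974, 53393 and 56917 in Prox1 OE. The groups did not overlap, but the gap was small beside the spread. The means were 61431 ± 4595 (SD, n = 2) and 54095 ± 2545 (SD, n = 3), and the log2 fold change was -0.18 (SE 0.16, 95% interval -0.56 to 0.19, limma adjusted p = 0.411). Fn1 passed with total count scaling (-0.61, limma adjusted p = 0.0080), and its value was -0.11 without Control replicate 2.

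**Figure D2:**
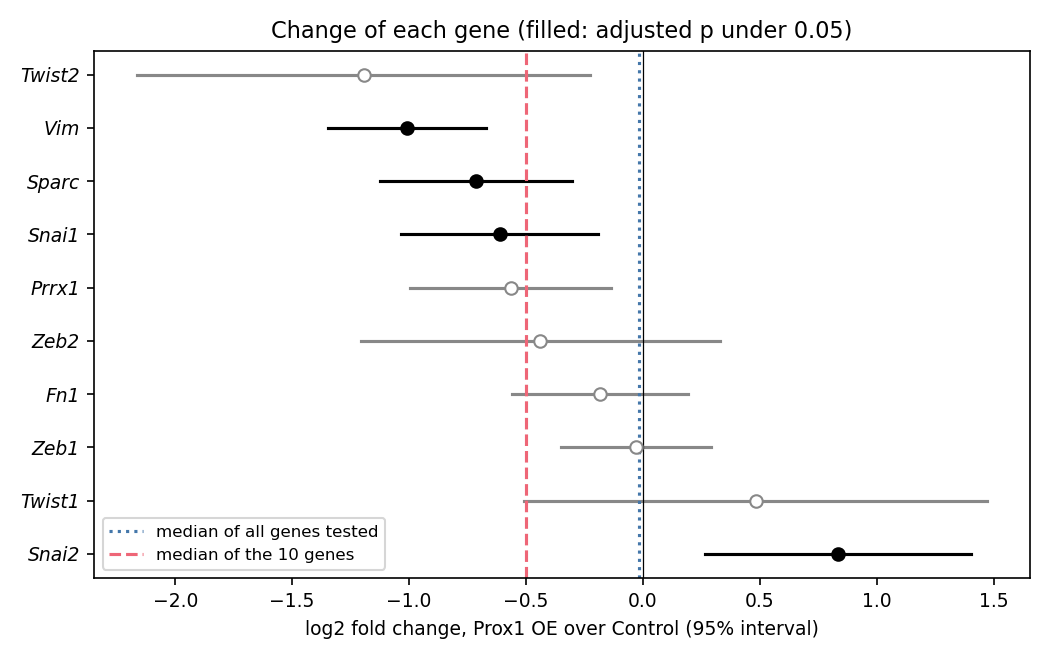
Log2 fold change of Prox1 OE over Control for each EMT gene with its 95% interval (limma, filled where the adjusted p is under 0.05). Vim, Sparc and Snai1 lie below 0 and Snai2 above it, and the dashed line marks the median of the 10 genes (-0.50) beside the dotted median of all genes (-0.02).

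The products were also compared within each library, per kilobase of exon. Vim was at 1.16 and 1.09 times Fn1 in Control and at 0.696, 0.697 and 0.523 times Fn1 in Prox1 OE. Sparc was at 3.67 and 3.24 times Fn1 in Control and at 2.16, 2.76 and 2.29 times Fn1 in Prox1 OE. Neither ratio overlapped between the groups, with log2 differences of -0.83 and -0.53 (exact permutation p = 0.1 for each, the smallest possible, adjusted 0.225). Vim against Sparc overlapped, with a log2 difference of -0.30 (exact permutation p = 0.3, adjusted 0.337).
Vim against Cdh1, a mesenchymal over an epithelial gene, was at 1.01 and 1.12 in Control and at 1.08, 1.21 and 1.26 in Prox1 OE. This ratio overlapped between the groups (log2 difference 0.15, exact permutation p = 0.3, adjusted 0.337). Snai1 against Cdh1 was at 0.0316 and 0.0304 in Control and at 0.0373, 0.0418 and 0.0594 in Prox1 OE (log2 difference 0.54, exact permutation p = 0.2, adjusted 0.3). Cdh2, which encodes N-cadherin and is also made by hepatocytes, was at 0.0499 and 0.0478 of Cdh1 in Control and at 0.135, 0.106 and 0.141 in Prox1 OE (log2 difference 1.37, exact permutation p = 0.1, adjusted 0.225).

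**Figure D3:**
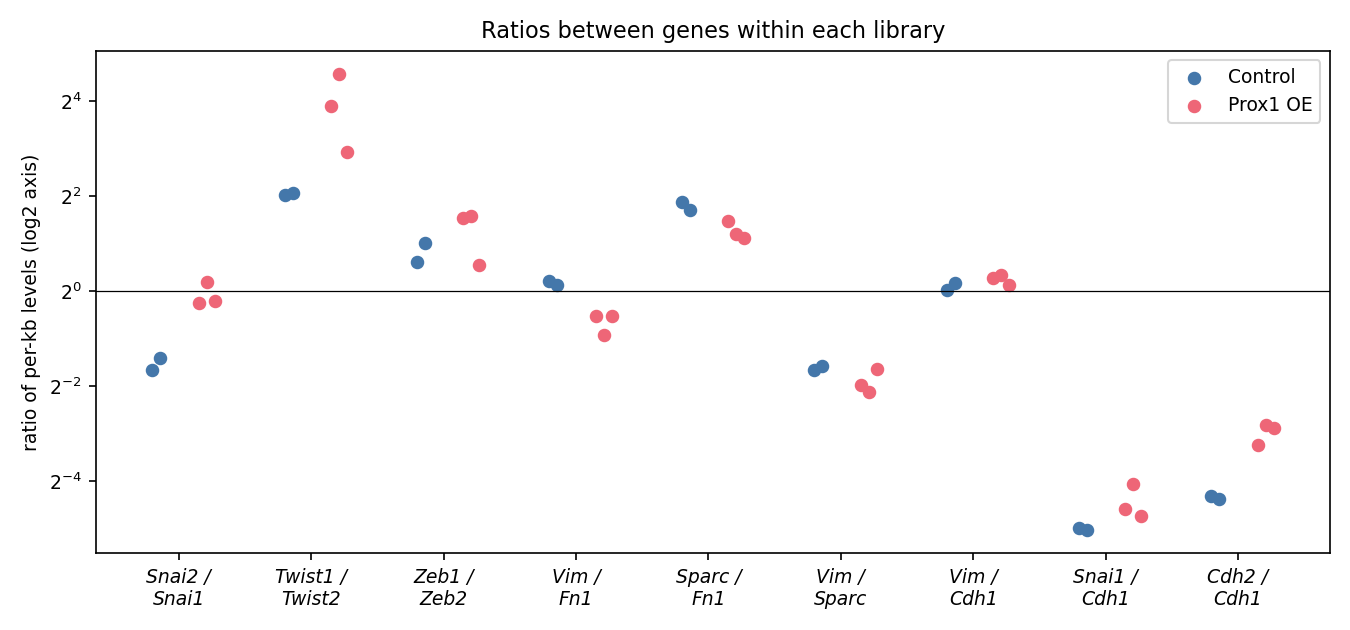
Ratio of per-kilobase levels between named genes within each library (log2 axis, points are libraries, Control n = 2 and Prox1 OE n = 3, horizontal offsets only separate points). Snai2 over Snai1 was at 0.315 and 0.374 in Control and at 0.839 to 1.15 in Prox1 OE, whereas Vim over Cdh1 overlapped between the groups.

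Levels between genes were compared per kilobase of exon. In Control, Sparc had 18101 normalised counts per kilobase, Vim 5891 and Fn1 5257, followed by Snai1 at 172, Zeb1 at 70.8, Snai2 at 58.9, Zeb2 at 40.3, Prrx1 at 33.0, Twist1 at 31.8 and Twist2 at 7.76. Among neighbours in this order only Prrx1 and Twist1 overlapped between libraries. In Prox1 OE, Fn1 (4629 per kilobase) stood above Vim (2942), and Snai2 (107) came next to Snai1 (112). In that group Snai1 and Snai2, Zeb1 and Twist1, Twist1 and Zeb2, and Zeb2 and Prrx1 overlapped as neighbours. The matrix and filament genes thus exceeded every transcription factor in both groups.

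Genes of the wider programme were read from the same fit, in lists described by their counts and medians beside the 33.3% of all genes that passed. Among 10 other EMT transcription factors, 7 were tested, 1 was lower and 0 were higher, with a median of -0.52. The gene that passed was Tcf4, which encodes the E protein E2-2 and was at 1647 and 1737 normalised counts in Control and 1292, 1286 and 1358 in Prox1 OE (log2 fold change -0.37, limma adjusted p = 0.0405). The count in this list was 0 without Control replicate 1, Control replicate 2, Prox1 OE replicate 2 or Prox1 OE replicate 3, and also with upper-quartile factors, limma without trend and the replicate block. Foxc2, a forkhead factor of mesenchyme, was at 84.6 and 74.6 in Control and 30.7, 56.6 and 39.3 in Prox1 OE and did not pass (-0.94, limma adjusted p = 0.0668), and it is named here after its values were seen.

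SNAIL and ZEB proteins recruit corepressors, and their turnover runs through Gsk3b and F-box proteins. Of 14 such genes, 7 were lower and 0 were higher, with a median of -0.38. Ctbp2, a corepressor that ZEB proteins bind, was at 1168 and 1075 in Control and 621, 623 and 443 in Prox1 OE (log2 fold change -1.01, limma adjusted p = 0.0071). Rcor1, the CoREST scaffold, fell by 0.74 on the log2 scale (limma adjusted p = 0.0248) and Ezh2, the H3K27 methyltransferase, fell by 0.64 (0.0150). Of these genes, 0 passed without Control replicate 1, 1 without Control replicate 2, 4 without Prox1 OE replicate 2 and 2 without Prox1 OE replicate 3. In limma without trend 2 passed and with total count scaling 13 passed.

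Epithelial identity factors, which hold the epithelial state and are targets of EMT repressors, were mostly lower. Among 12 of them, 8 were lower and 1 was higher, with a median of -0.99. Esrp1, which drives epithelial splicing, was at 859 and 1046 normalised counts in Control and at 120, 208 and 120 in Prox1 OE, and fell by 2.71 on the log2 scale (limma adjusted p = 0.0023). Its paralogue Esrp2, the form found in adult hepatocytes, was at 2216 and 2430 in Control and at 3278, 2843 and 3327 in Prox1 OE, and rose by 0.44 (limma adjusted p = 0.0305), a difference that was 0.01 with total counts as library size. Grhl2 (-1.65, adjusted p = 0.0023) and Ehf (-1.45, adjusted p = 0.0035), both epithelial factors, also fell in the limma fit. Without Control replicate 1 or Control replicate 2, 5 genes of this list passed in place of 9.

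Junction and keratin genes were lower in Prox1 OE for 13 of 26 genes and higher for 0, with a median of -0.79. Cdh1 was at 26155 and 24490 in Control and at 13077, 12039 and 9238 in Prox1 OE (log2 fold change -1.16, SE 0.17, limma adjusted p = 0.0037). Epcam, an epithelial adhesion molecule, was at 8657 and 8268 in Control and at 3606, 5131 and 3515 in Prox1 OE (-1.07, limma adjusted p = 0.0052). The largest changes were in the claudin gene Cldn4 (-2.98, adjusted p = 0.0108) and the biliary keratins Krt7 (-2.50, 0.0024) and Krt19 (-2.41, 0.0014). Without Control replicate 1 the count was 4 and without Control replicate 2 it was 8, whereas total count scaling gave 22 and DESeq2 gave 20.

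Other mesenchymal products were lower for 25 of 42 genes and higher for 1, with a median of -0.75. Col1a1, a fibrillar collagen chain, was at 31809 and 29586 in Control and at 13386, 15445 and 10742 in Prox1 OE (-1.23, limma adjusted p = 0.0033). Acta2, the smooth muscle actin of myofibroblasts, was at 8180 and 11977 in Control and at 3492, 5135 and 3480 in Prox1 OE (-1.32, limma adjusted p = 0.0058). Falls were also seen in the matricellular gene Thbs1 (-2.11, limma adjusted p = 0.0071) and the collagen crosslinker Lox (-1.72, 0.0022).
Nt5e, which encodes CD73 and is also found on hepatocytes, was the gene that rose, from 1464 and 1432 to 3910, 3280 and 3778 (1.33, limma adjusted p = 0.0019). Cdh2 was at 2300 and 2063 in Control and at 3119, 2250 and 2296 in Prox1 OE, which overlapped (0.21, limma adjusted p = 0.352). Pdgfrb, a receptor of mural and stellate cells, overlapped too (-0.08, limma adjusted p = 0.652). The count was 14 without Control replicate 1.

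**Figure D4:**
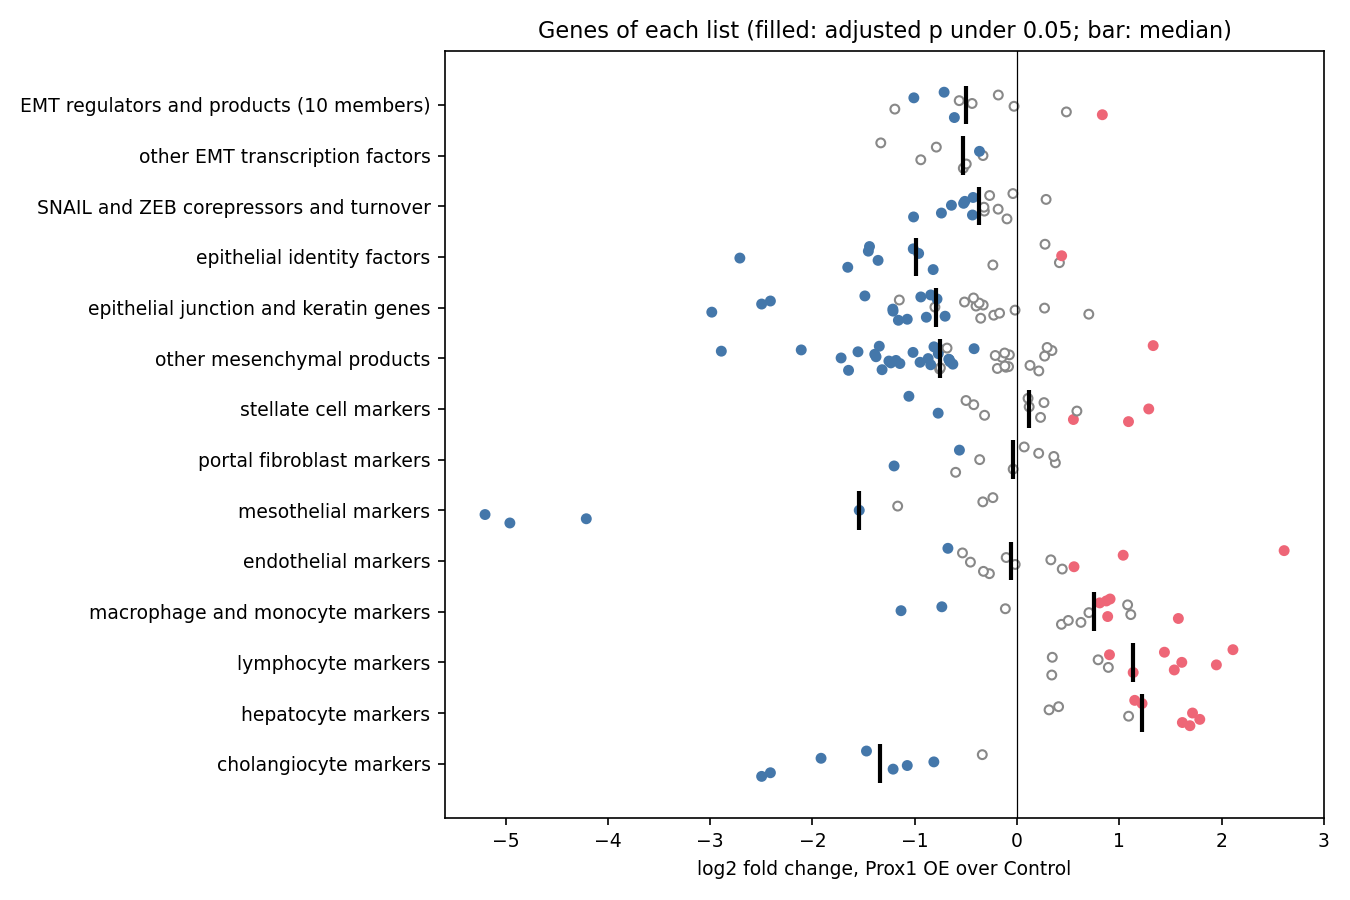
Log2 fold change of Prox1 OE over Control for each tested gene of the lists (points, filled where the limma adjusted p is under 0.05, red higher and blue lower), with the median of each list as a bar. Medians of the 10 EMT genes (-0.50), other mesenchymal products (-0.75) and epithelial junction genes (-0.79) lie below 0, and those of hepatocyte (1.22) and lymphocyte (1.14) markers lie above it.

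Markers of cell types that a bulk tumour can hold also differed between the groups, and their part in the EMT results was not tested. Of 13 stellate cell markers, 3 were higher, 2 were lower and the median was 0.12, and their summed level was 39798 to 40772 normalised counts in Control and 27340 to 31217 in Prox1 OE. Lrat, the retinol-storing enzyme of quiescent stellate cells, rose by 1.09 and the lectin gene Colec11 rose by 1.29, while Nes fell by 1.06 and the pericyte gene Rgs5 fell by 0.77 (limma adjusted p up to 0.0090). Among 10 portal fibroblast markers, 9 were tested and 2 were lower, Fbln2 and Gas6, with a median of -0.04 and sums of 46152 to 49264 in Control against 31974 to 37799 in Prox1 OE. Without either Control library, 2 stellate and 1 portal fibroblast markers passed, and 1 portal fibroblast marker passed without Prox1 OE replicate 3. The stellate median ranged from 0.064 without Prox1 OE replicate 3 to 0.15 without Prox1 OE replicate 2, and was -0.31 with total count scaling, where all genes had -0.44. The portal fibroblast median changed sign, from -0.22 without Prox1 OE replicate 3 to 0.27 without Prox1 OE replicate 1.

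Mesothelial markers had sums of 456 to 627 in Control and 202 to 338 in Prox1 OE. Of the 7 genes, 4 passed as lower, but 3 of those were at or under 3 reads in every Prox1 OE library and entered the test only through their Control values, so no weight is put on this count. Msln, the mesothelin gene, was at 123 and 55.9 normalised counts in Control and at 1.02, 3.54 and 1.16 in Prox1 OE, at or under 3 reads per library. Upk1b, a uroplakin, was at 60.0 and 21.2 in Control and at 0 in every Prox1 OE library. Without Control replicate 1 the count was 2, and with a mean of at least 50 it was 0, since the genes that passed were then not tested.

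Endothelial markers had a median of -0.06, with 3 of 12 higher and 1 lower and sums of 13893 to 17194 in Control and 15079 to 21541 in Prox1 OE. The median was -0.22 without Control replicate 1 and 0.10 without Control replicate 2. The sinusoidal genes Clec4g and Stab2 rose by 2.61 and 1.04 (limma adjusted p = 0.0035 and 0.0113), whereas Pecam1 did not pass (-0.27, limma adjusted p = 0.148). Macrophage and monocyte markers were higher for 5 of 14 genes and lower for 2, with a median of 0.76 and sums of 39161 to 43363 in Control and 56431 to 79265 in Prox1 OE. The highest of these sums was in Prox1 OE replicate 1, the library with the highest Zeb2. In Prox1 OE replicates 2 and 3 the sums (56431 and 69383) were above both Control libraries, while Zeb2 (447.2 and 472.2) was below both. Adgre1, which encodes F4/80, was at 1169 and 1074 in Control and at 2078, 1137 and 1471 in Prox1 OE (limma adjusted p = 0.191). Endothelial calls numbered 1 without Control replicate 1 and 2 without Control replicate 2, and macrophage calls numbered 4 without Control replicate 1, against 11 in DESeq2 and with the replicate block.

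Lymphocyte markers were higher for 7 of the 11 tested and lower for 0 (median 1.14, sums 881 to 1147 in Control and 1484 to 1747 in Prox1 OE), although the common leukocyte gene Ptprc did not pass (0.34, limma adjusted p = 0.254). Hepatocyte markers were higher for 6 of 9 genes (median 1.22), and their sums ran from 1268932 to 1872218 in Control and from 3622930 to 5132565 in Prox1 OE. Cholangiocyte markers were lower for 7 of 8 genes (median -1.34), with sums of 758178 to 827318 in Control and 523581 to 707505 in Prox1 OE. No list had a marker at 0 in all libraries. Without Control replicate 1, 0 of the hepatocyte markers and 2 of the lymphocyte markers passed, and without Control replicate 2 these counts were 4 and 0. Without Prox1 OE replicate 2 they were 3 and 2, and without Prox1 OE replicate 3 the hepatocyte count was 4. Of the cholangiocyte markers, 4 passed without Control replicate 1.

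Genes with the most similar pattern to each EMT gene were found by Pearson correlation of log2(normalised count + 1) over the 5 libraries, among genes with a mean of at least 100. This is a description over few points that share the group difference. Vim was closest to Alcam and Osmr (r = 0.999 for each), a cell adhesion molecule and the oncostatin M receptor, and 1355 genes had r above 0.95 with it. Sparc was closest to Rbm5 (r = 0.999) and Pprc1 (r = 0.998), with 399 genes above 0.95. Snai1 was closest to Birc2 (r = 0.998) and Noc3l (r = 0.997), with 427 such genes, and Snai2 to Cln8 (r = 0.9995) and Slc25a3 (r = 0.999), with 1193.
Twist1 was close to Tmcc1 (r = 0.997), with 62 genes above 0.95, and Twist2 to Spty2d1 (r = 0.9997) and Zfp790 (r = 0.999), with 1145. Zeb1 had the fewest like it, 9 genes, led by Cldn2 (r = 0.989) and Tmem26 (r = 0.985). Zeb2 was closest to Arhgap19 (r = 0.999) and Gm14410 (r = 0.998), with 184, Prrx1 to Ppp1r13l (r = 0.999) and Lce6a (r = 0.998), with 414, and Fn1 to 1700020I14Rik (r = 0.9998) and Luc7l2 (r = 0.998), with 82. Between EMT genes themselves, Prrx1 and Sparc had r = 0.978 and Vim and Snai2 had r = -0.962 over the 5 libraries.

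The calls were set beside each other across settings. Vim passed in all 17 fits, whereas leaving out a Control library kept Vim alone among the EMT genes. Scaling by total counts moved the median of all genes to -0.44 from -0.02, and under it 7 EMT genes passed as lower and 0 as higher. Under this scaling the log2 fold change was 0.41 for Snai2 and -1.44 for Vim, not corrected for the shifted median.

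**Figure D5:**
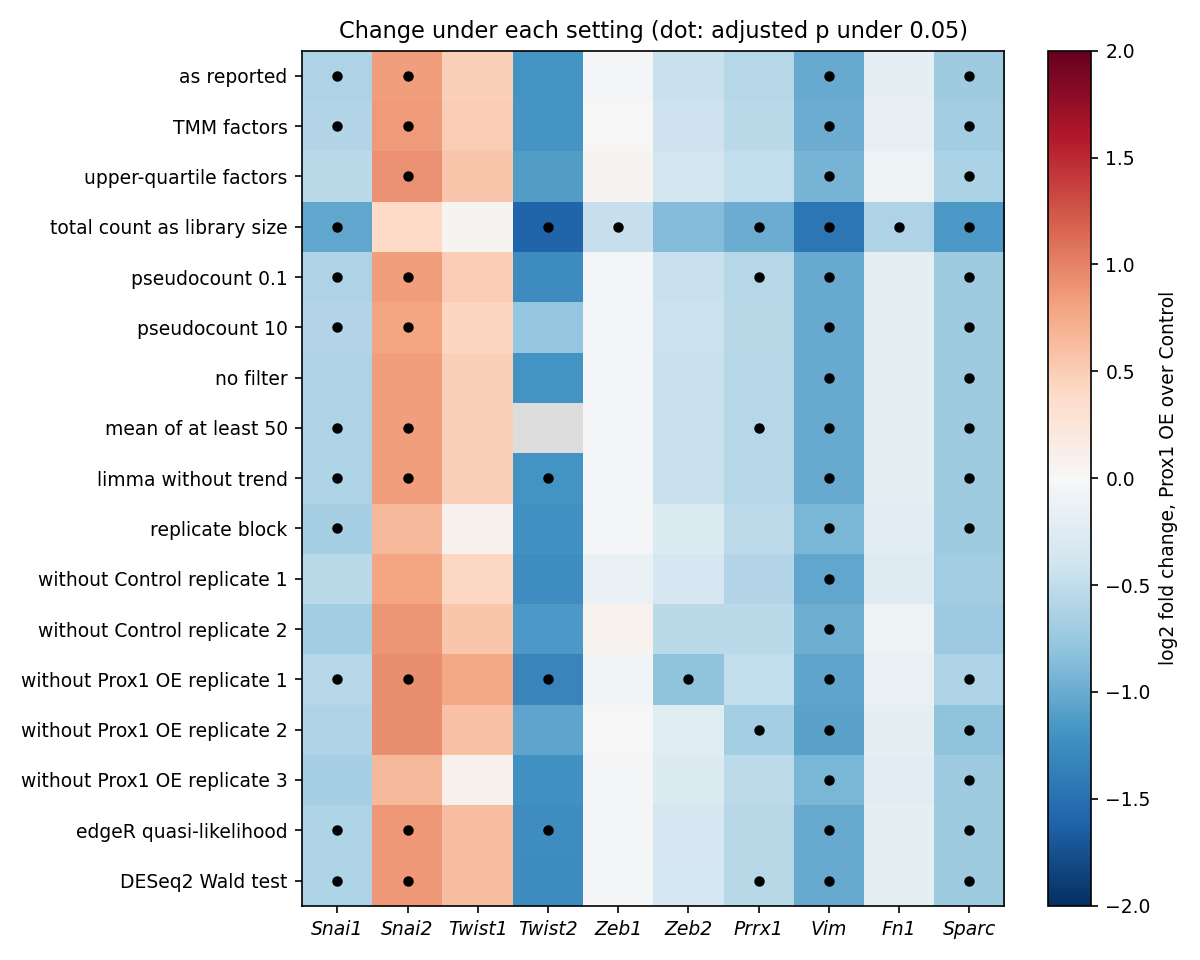
Log2 fold change of Prox1 OE over Control (colour scale) for each EMT gene under each setting, with a dot where the adjusted p is under 0.05 and grey where the gene was not tested. Vim passed in every row, Sparc in all but those without a Control library, and the row with total counts as library size is shifted towards lower values.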

How the data were processed

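Per the labels and the methods, strand-preserving dUTP libraries were sequenced by the authors as read pairs and aligned with STAR to mm10. The tool that assigned reads to genes, its annotation, its strand setting and how it handled reads matching several gene copies are not given in the sources used here. The authors deposited a normalised count signal per gene and library, which is reads divided by a DESeq2 size factor. Dividing by the worth of 1 read gave whole numbers for 100% of values, within 0.1 read, and those reads served the count tests. Columns with no sample numbered 0. A deposited table of the authors' own comparison (mean, shrunken log2 fold change, p-value and adjusted p-values) was not used.

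Symbols, coordinates and exon lengths came from GENCODE M21 on GRCm38, which matched 55137 of 55397 identifiers (99.53%). The test over genes averaging 10 or more normalised counts used limma 3.58.1 (lmFit, eBayes with trend, two-sided) in R 4.3.3 on log2(normalised count + 1), and p-values were adjusted by Benjamini-Hochberg, with 0.05 as the limit. That scale understates fold changes of low genes. The model held no covariate, and the paper names one only for its mouse embryonic fibroblast reprogramming data. Libraries of a group were distinct (chi-square over degrees of freedom of 39.6 for the Control pair and 80.4 to 126 for the Prox1 OE pairs) and were counted separately. Totals cover counting error only. The procedure was also run on simulated counts, whose outcome is not given here and on which no result rests.

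The text names the 10 genes, Prox1, the reference genes Cdh1, Epcam, Cdh2, Col1a1, Acta2, Pdgfrb, Ptprc, Adgre1 and Pecam1, and up to 3 called genes per direction in each of the 13 gene lists, together with the 2 genes most correlated with each EMT gene. Some genes that this rule takes are not reported here. Others are marked as named after their values were seen or overlap an EMT gene. The genes and lists were chosen with earlier results of these data known. The 16 alternatives were TMM, upper-quartile and total count scaling, pseudocounts of 0.1 and 10, no filter, a mean of at least 50, limma without trend, edgeR 4.0.16 quasi-likelihood and the DESeq2 1.42.0 Wald test on whole reads, a replicate block and each library left out. Ratios were compared with exact permutation tests.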

Additional observations from a re-analysis of the deposited data

How the results depend on the processing

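Over the 10 EMT genes and 16 alternatives, 129 values kept their direction and their side of the threshold, 15 were no longer past it, 12 came to pass it and 3 changed sign. Vim passed throughout. Total count scaling gave 1475 genes higher and 6833 lower with 0 EMT genes higher and 7 lower, and values of 0.41 for Snai2, which no longer passed, and -1.60 for Twist2, -0.46 for Zeb1, -0.99 for Prrx1 and -0.61 for Fn1, which then passed. Medians under it were -0.93 for the EMT genes, -0.93 for other EMT transcription factors, -0.81 for corepressors, -1.42 for epithelial identity factors, -1.22 for junction and keratin genes and -1.18 for other mesenchymal products, beside -0.44 for all genes. Without a filter, 0 EMT genes were higher, with Snai1 at -0.61 and Snai2 at 0.83. More genes then entered both the variance fit and the adjustment. Upper-quartile factors gave -0.53 for Snai1, no longer called, and 0.049 for Zeb1, reversed. Twist2 passed in limma without trend (-1.19) and edgeR (-1.24), and Prrx1 with a pseudocount of 0.1 (-0.57), a mean of at least 50 (-0.56) and DESeq2 (-0.56). The mean of at least 50 moved the identity median to -1.36 and left Twist2 untested. The causes of these changes were not tested.

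The groups share replicate numbers, but no label says what a number marks. Deviations of same-numbered libraries had correlations of 0.137 and 0.0156, and 2 pairs are too few to tell whether the numbers mark pairs. With the replicate block, which leaves Prox1 OE replicate 3 without a partner, 0 EMT genes were higher, Snai2 was at 0.64, and the medians were -0.40 for the EMT genes and -0.58 for junction and keratin genes.

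Leaving out each library in turn gave 681 to 3738 genes higher and 477 to 3753 lower, with 0 to 1 EMT genes higher and 1 to 5 lower. Where a Control library was left out, the lone Control sample was assumed to vary like the Prox1 OE group. Ranges were -0.69 to -0.54 for Snai1, 0.64 to 0.93 for Snai2, -1.32 to -1.06 for Twist2, -0.13 to 0.075 for Zeb1, which was 0.075 without Control replicate 2 and 0.012 without Prox1 OE replicate 2, 0.08 to 0.78 for Twist1, -0.26 to -0.11 for Fn1, -0.80 to -0.24 for Zeb2, -0.68 to -0.50 for Prrx1 and -0.81 to -0.61 for Sparc. Medians ranged from -0.54 to -0.40 for the EMT genes, -0.74 to -0.39 for other EMT transcription factors, -0.42 to -0.33 for corepressors, -1.27 to -0.88 for identity factors, -0.85 to -0.58 for junction and keratin genes and -0.85 to -0.64 for other mesenchymal products. Twist2 rests on 7 to 12 reads in each Prox1 OE library.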

Other observations

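Among the EMT transcription factors below the filter, Snai3 and Gsc are given as values and were chosen after these were seen. Snai3 was at 9.04 and 3.39 normalised counts in Control and at 7.16, 9.44 and 5.79 in Prox1 OE. Gsc, the goosecoid homeobox gene, was at 0 in both Control libraries and at 2.05, 0 and 3.47 in Prox1 OE, at or under 3 reads throughout.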
